A study of Mus musculus with 6 samples.

Results

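The mucins and the enzymes that build their sugar chains were followed in mouse oviducts that carried 1 or 2 working alleles of Wt1, a zinc finger transcription factor. The group held 41 genes: 6 mucins and 35 enzymes or enzyme partners, chosen by name as genes of mucin-type, N-linked and glycolipid glycans. The choice was made with earlier results of these data known, so shares of members set beside all genes are descriptive only. Each member was read from the probe sets whose platform annotation names that gene and no other, and was represented by its brightest probe set, taken over the 6 arrays. All 41 were found among the 18193 genes that could be named in this way. The heterozygous group (Wt1 ko/+) and the wild-type group (Wt1 +/+) each held 3 samples, with 1 array per sample, from females of the outbred MF1 stock. The mates were wild-type males in both groups. Oviducts were collected at embryonic day 2.5, rinsed in PBS and used whole, so every cell type of the organ contributed RNA. How the ko allele was made is not given in the labels. Nothing in the labels tells single animals apart from pools, so the p-values speak only of how far these samples spread, part of which may be technical.

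Mucins are proteins with long stretches of serine and threonine that carry dense O-linked sugar chains. GalNAc-transferases place the first sugar, core enzymes and N-acetylglucosaminyl- and galactosyltransferases lengthen and branch the chain, and sialyl-, fucosyl- and sulfotransferases cap it. Several of the same enzymes also act on N-linked glycans and on glycolipids. In the oviduct, glycans line the apical surface of the epithelium and are carried by secreted proteins, and sperm and early embryos are in contact with both.

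No member passed the threshold in limma, an adjusted p of 0.05 over all genes: 0 of 41 members, beside 0.0165% of all genes. At an unadjusted p under 0.05 there were 4 of 41 members (9.76%), beside 6.44% of all genes. One of the 4 was higher in heterozygous oviducts (background 2.67%) and 3 were lower (background 3.77%). B3gnt5 was the higher one, and St6gal1, St3gal5 and B4galt5 were the lower ones. The 3 arrays of each genotype did not overlap in 10 of 41 members (24.4%), beside 11.8% of all genes. In 6 of these the heterozygous arrays were the higher ones (background 5%), namely Galnt4, C1galt1, Gcnt2, B3gnt2, B3gnt5 and B4galt6. In the other 4 they were the lower ones (background 6.77%), namely Muc20, B4galt5, St3gal5 and St6gal1. A log2 change of at least 0.5 in size was seen in 5 of 41 members, beside 13.9% of all genes. The median log2 change of the members, heterozygous minus wild type, was 0.05, with 28 members above 0 and 13 below, beside a median of -0.03 over all genes, of which 45% were above 0.

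**Figure D1:**
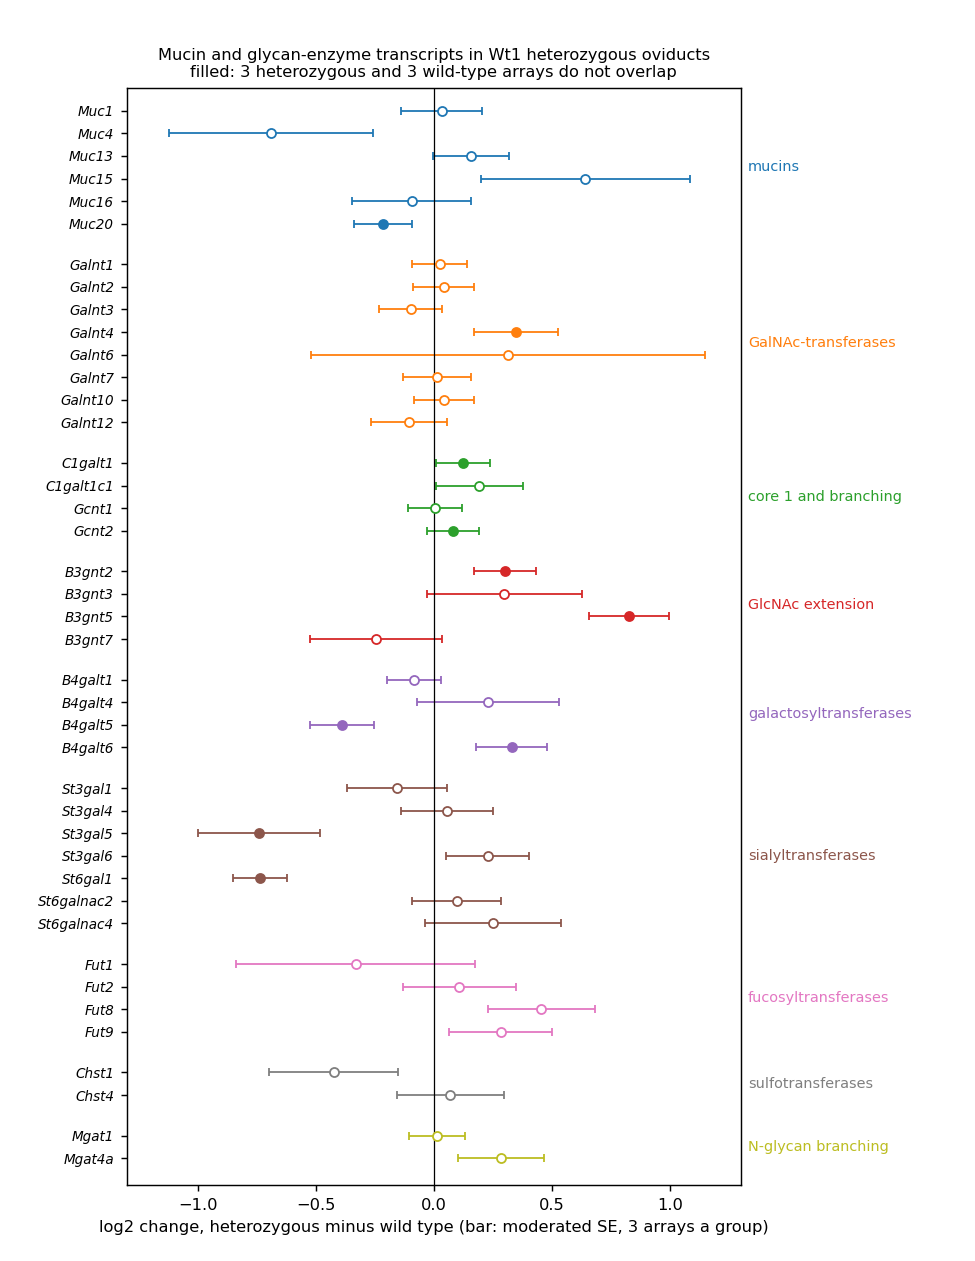
Log2 change of each of the 41 members, heterozygous minus wild type, with the moderated standard error of limma as the bar and the members grouped by role. Most points lie within 0.5 of 0, B3gnt5 lies farthest to the right at 0.83, and St3gal5 and St6gal1 lie farthest to the left at -0.74, with Muc4 near them at -0.69.

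The precision of each change is given by the intervals of the fit, which rest on the moderated standard errors of limma. The 95% confidence interval of the log2 change excluded 0 in 4 members. In 11 members it lay within 0.5 of 0 on both sides, so that a change of that size was outside the interval. The median width of the interval was 0.87. The median log2 value over the whole array, 7.31, served as a mark of dim signal, and 32 of the 41 members exceeded it in at least 1 group mean. So did 11954 of all 18193 genes, each likewise at its brightest probe set. The files used here hold no detection calls, so nothing can be said on whether the dimmer members were above background.

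The arrays and the tissue were checked once. Array medians lay between 152.0 and 168.3 in intensity, and correlations between arrays across genes were 0.960 to 0.972. The Actb 3' to 5' ratio, a sign of RNA integrity, was 2.49, 1.67 and 1.71 in heterozygous replicates 1, 2 and 3, against 1.74, 2.40 and 5.90 in wild-type replicates 1, 2 and 3. Wt1 lay at 11.12, 11.27 and 11.79 in heterozygous and 12.17, 12.06 and 11.67 in wild-type replicates 1, 2 and 3, so heterozygous replicate 3 lay above wild-type replicate 3 (log2 change -0.57, standard error 0.23, adjusted p = 0.771 in limma). The position of its probe set relative to the altered sequence is unknown here, which makes it a weak check. Ovgp1, the secreted oviduct glycoprotein, averaged 14.33 in heterozygous and 14.27 in wild-type oviducts, and all 5 secretory and all 6 ciliated epithelial markers exceeded the array median.

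Promoter sequences are given because Wt1 encodes a DNA-binding protein. They are those of the 4 members at an unadjusted p under 0.05 in limma, picked by their values from the 10 whose groups separated. RefSeq's table for GRCm38.p6 holds at least 1 start for 30 of the 41 members, 45 windows in all. Each window printed here is the 250 bases before a start, 5' to 3' on the strand of the gene. Capitals mark matches on either strand to 3 motifs: GNGTGGGNG, a form of the WT1 element, GCGGGGGCG, an EGR-type element that WT1 is also known to bind, and the GC box GGGCGG. St6gal1 lies on the plus strand, with its first window at chr16:23224490-23224739 and its second at chr16:23225771-23226020. St3gal5 is at chr6:72097358-72097607 on the plus strand, B3gnt5 at chr16:19759984-19760233 on the plus strand, and B4galt5 at chr2:167349179-167349428 on the minus strand.
St6gal1, first start: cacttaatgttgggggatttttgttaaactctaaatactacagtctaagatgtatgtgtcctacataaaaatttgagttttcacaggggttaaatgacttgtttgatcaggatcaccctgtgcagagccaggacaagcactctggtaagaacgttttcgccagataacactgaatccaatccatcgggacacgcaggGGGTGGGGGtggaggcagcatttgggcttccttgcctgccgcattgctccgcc
St6gal1, second start: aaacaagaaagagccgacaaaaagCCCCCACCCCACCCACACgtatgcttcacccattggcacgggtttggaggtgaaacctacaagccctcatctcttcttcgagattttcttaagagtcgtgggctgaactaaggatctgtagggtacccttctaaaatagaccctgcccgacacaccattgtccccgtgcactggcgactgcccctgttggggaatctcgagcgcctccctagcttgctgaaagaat
St3gal5: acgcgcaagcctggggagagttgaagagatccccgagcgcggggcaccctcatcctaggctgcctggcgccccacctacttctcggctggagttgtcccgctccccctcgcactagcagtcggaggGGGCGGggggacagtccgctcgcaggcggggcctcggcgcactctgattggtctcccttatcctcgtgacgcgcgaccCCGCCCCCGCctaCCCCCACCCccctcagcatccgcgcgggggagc
B3gnt5: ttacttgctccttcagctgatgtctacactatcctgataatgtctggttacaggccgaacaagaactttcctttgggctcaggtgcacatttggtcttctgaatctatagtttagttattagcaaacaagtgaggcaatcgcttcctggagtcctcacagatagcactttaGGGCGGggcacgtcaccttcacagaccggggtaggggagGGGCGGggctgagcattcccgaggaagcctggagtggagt
B4galt5: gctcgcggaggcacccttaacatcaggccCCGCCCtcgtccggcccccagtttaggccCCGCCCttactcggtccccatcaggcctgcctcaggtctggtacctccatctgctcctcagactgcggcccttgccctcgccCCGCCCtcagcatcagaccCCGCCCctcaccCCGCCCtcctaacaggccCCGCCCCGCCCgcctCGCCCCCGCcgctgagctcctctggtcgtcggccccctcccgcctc

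St6gal1 had 1 match to the WT1 element before its first start, 2 adjoining ones before its second and 0 before the third start in the table. St3gal5 had 1 WT1 element, 2 GC boxes, and 1 EGR-type element that shares bases with 1 of these GC boxes. B4galt5 had 1 EGR-type element and 7 GC boxes, and B3gnt5 had 2 GC boxes alone. Over all members the WT1 element was found in 6 of 45 windows (13.3%), beside 12.7% of 32851 windows in the table. Besides St6gal1 and St3gal5, the members with it were B3gnt7, Muc13 and St6galnac4, whose groups overlapped. The EGR-type element was found in 3 of 45 (6.67%), beside 2.57%, and the GC box in 22 of 45 (48.9%), beside 32.7%. Member windows had a median GC content of 59.2%, beside 52.4% in all windows. A match is a run of letters in these windows and was not tested as a binding site.

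Among the mucins no gene passed the test, and 3 had a mean above and 3 a mean below that of wild type (median log2 change -0.03). Muc1, a mucin anchored in the apical membrane, lay at 10.70, 10.15 and 10.41 in heterozygous replicates 1, 2 and 3, against 10.30, 10.47 and 10.39 in wild-type replicates 1, 2 and 3. The wild-type arrays lay inside the range of the heterozygous ones, and the change was 0.03 (95% interval -0.39 to 0.45, adjusted p = 0.983 in limma). Muc16, the very large membrane mucin known as CA125, lay at 8.36, 8.31 and 8.49 in heterozygous oviducts, against 8.05, 8.99 and 8.41 in wild-type oviducts. Here the heterozygous arrays lay inside the wild-type range, and the change was -0.09 (95% interval -0.71 to 0.52).

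Muc20, a small membrane mucin, was the mucin whose groups did not overlap. It lay at 7.80, 8.06 and 7.88 in heterozygous replicates 1, 2 and 3, against 8.19, 8.10 and 8.10 in wild-type replicates 1, 2 and 3. All 3 heterozygous arrays were below the wild-type ones, heterozygous replicate 2 by little, and the change was -0.21 (standard error 0.12, adjusted p = 0.859 in limma, exact permutation p = 0.1, the smallest that 3 arrays against 3 allow). The second, dimmer Muc20 probe set had a change of 0.19, the opposite sign, with overlapping groups. Muc4, which lies next to Muc20 on chromosome 16 and encodes another membrane mucin, lay at 4.10, 4.96 and 5.44 in heterozygous oviducts, against 6.07, 5.56 and 4.94 in wild-type oviducts. Its groups overlapped, both means were below the array median, and the change was -0.69 (standard error 0.43, adjusted p = 0.871 in limma). This Muc4 probe set is of a kind whose probes can also match other transcripts. Without such probe sets the gene rests on one with means of 2.02 in heterozygous and 3.23 in wild-type oviducts. The 2 dimmer Muc4 probe sets had changes of -1.21 and -1.74 (the mean of all 3 gave -1.21), and in the dimmest one, with means of 1.25 in heterozygous and 2.99 in wild-type oviducts, the groups did not overlap, as in 10.5% of all probe sets.

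Muc13, a membrane mucin best known from the gut, lay at 7.23, 7.09 and 7.22 in heterozygous oviducts, against 6.99, 6.80 and 7.28 in wild-type oviducts. Wild-type replicate 3 was the highest array of all, so the groups overlapped (change 0.16, 95% interval -0.23 to 0.55). That probe set is of a kind whose probes can also match other transcripts, and the dimmer second one, the gene's value without such probe sets, had a change of 1.17 with overlapping groups. Muc15, also membrane-bound, lay at 5.98, 5.94 and 5.20 in heterozygous oviducts, against 5.27, 4.19 and 5.75 in wild-type oviducts. Its groups overlapped, both means were below the array median, and its interval was wide (change 0.64, 95% interval -0.44 to 1.73). The secreted, gel-forming mucins were on a separate list: Muc5b lay at 6.89, 6.52 and 6.13 in heterozygous and 6.69, 6.78 and 6.07 in wild-type oviducts, and Muc5ac had a change of 0.11, both with overlapping groups.

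**Figure D2:**
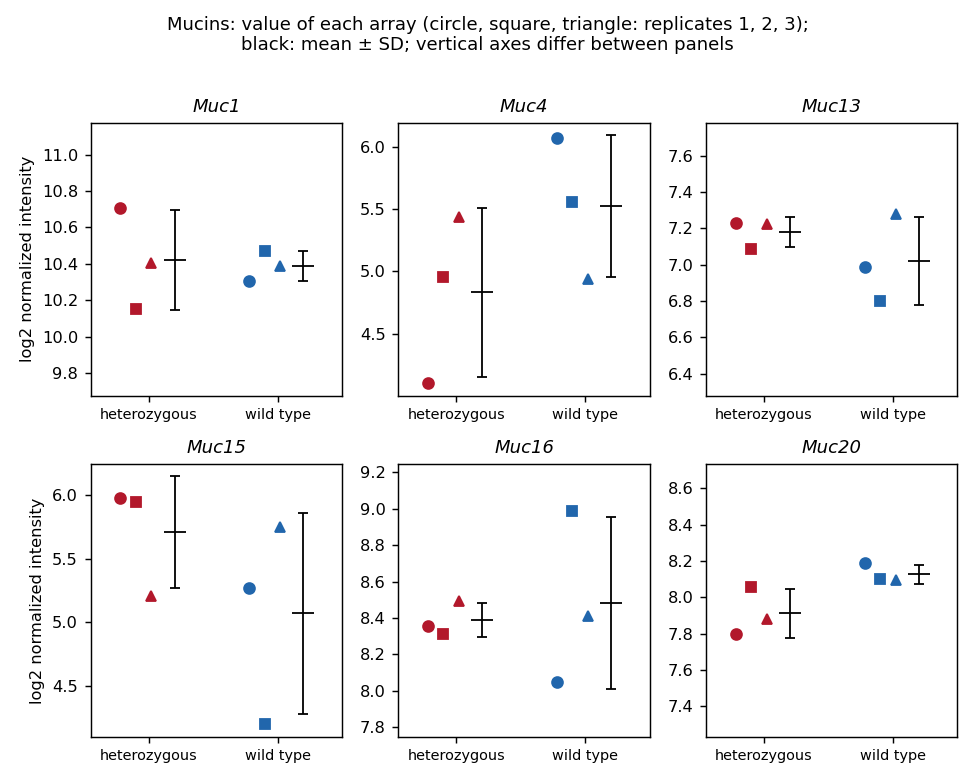
Log2 normalized intensity of the 6 mucins in each array, heterozygous left and wild type right, with replicates 1, 2 and 3 as circle, square and triangle and the mean ± SD in black, on vertical axes that differ between panels. Muc20 is the panel in which the 3 heterozygous points all lie below the 3 wild-type points, and in the other 5 the groups overlap.

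The GalNAc-transferases, which start O-glycan chains on serine and threonine, held no gene that passed the test. Of 8 members, 6 had a change above 0 and 2 below, with a median of 0.03. Galnt1 and Galnt2, which act on many peptides, had changes of 0.02 (95% interval -0.26 to 0.31) and 0.04 (95% interval -0.27 to 0.36). Galnt7 and Galnt10, which prefer peptides that already carry a GalNAc, had changes of 0.01 and 0.04. Galnt3, known for its O-glycosylation of the hormone Fgf23, and Galnt12 had changes of -0.10 and -0.11.

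Galnt4 had the smallest p of this class. It lay at 9.40, 9.35 and 9.33 in heterozygous replicates 1, 2 and 3, against 9.26, 9.09 and 8.67 in wild-type replicates 1, 2 and 3. The heterozygous arrays were close together and above all 3 wild-type ones, among which replicate 3, the array of highest Actb ratio, was the lowest (change 0.35, standard error 0.18, adjusted p = 0.833 in limma). Without that array the change was 0.18. The other Galnt4 probe sets had changes of 0.44 and -0.23. Galnt6, by contrast, varied widely within both groups, with 6.22, 4.05 and 6.29 in heterozygous oviducts, against 4.94, 6.51 and 4.17 in wild-type oviducts. Its 6 arrays spanned 2.46 on the log2 scale, both means were below the array median, and its 95% interval ran as far as -1.73 and 2.36.

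All 4 members that make or branch the O-glycan core had a change above 0, with a median of 0.10. C1galt1, the core 1 synthase, lay at 9.16, 9.17 and 9.15 in heterozygous oviducts, against 8.94, 9.13 and 9.05 in wild-type oviducts. The groups did not overlap, but the gap was small, with a change of 0.12 (standard error 0.11, adjusted p = 0.904 in limma), and the other C1galt1 probe sets had changes of -0.19 and 0.07. The one at -0.19 also separated the genotypes, in the opposite direction, with means of 8.43 in heterozygous and 8.62 in wild-type oviducts. C1galt1c1, the chaperone that C1galt1 needs for folding, had a change of 0.19. Gcnt1, which makes the core 2 branch, had a change of 0.0046 (95% interval -0.28 to 0.29). Gcnt2, which adds the branches of the I blood group antigen, averaged 11.58 ± 0.01 in heterozygous and 11.49 ± 0.07 in wild-type oviducts (SD, n = 3 each). Its groups did not overlap in the brightest probe set (change 0.08), while its 8 probe sets ranged over changes of -0.36 to 1.81.

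The enzymes that lengthen chains with N-acetylglucosamine held the highest change among the members. B3gnt5 makes the lacto-series glycolipid precursor by adding this sugar to lactosylceramide. It lay at 7.43, 7.70 and 7.87 in heterozygous replicates 1, 2 and 3, against 6.71, 7.04 and 6.77 in wild-type replicates 1, 2 and 3. The 3 heterozygous arrays were all above the 3 wild-type ones, with means of 7.67 ± 0.22 and 6.84 ± 0.18 (SD, n = 3 each) and a 1.77-fold higher level. The log2 change of 0.83 had a standard error of 0.17 and a 95% interval of 0.41 to 1.24, and did not pass over all genes (unadjusted p = 0.00279, adjusted p = 0.503 in limma, exact permutation p = 0.1). Its dimmer second probe set, at 4.62, 5.09 and 4.81 in heterozygous and 4.37, 3.45 and 4.32 in wild-type oviducts, likewise did not overlap and had a change of 0.79. Groups did not overlap in 10.5% of all probe sets.

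B3gnt2, the main enzyme of poly-N-acetyllactosamine chains, lay at 10.09, 10.16 and 10.02 in heterozygous oviducts, against 9.97, 9.73 and 9.68 in wild-type oviducts. The groups did not overlap (change 0.30, standard error 0.13, adjusted p = 0.805 in limma). Its second probe set had a change of 1.29 with overlapping groups, and wild-type replicate 3 was its lowest array, at 5.87. B3gnt3, which extends core 1 chains, had a change of 0.30 with overlapping groups. B3gnt7, which acts on keratan sulfate chains, averaged 8.30 ± 0.23 in heterozygous and 8.54 ± 0.50 in wild-type oviducts (SD, n = 3 each), a change of -0.24. The median of the 4 members was 0.30.

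The galactosyltransferases were split. B4galt5 and B4galt6 both make lactosylceramide, and their values lay on opposite sides of wild type. B4galt5 lay at 8.94, 8.96 and 9.21 in heterozygous replicates 1, 2 and 3, against 9.30, 9.47 and 9.51 in wild-type replicates 1, 2 and 3. All 3 heterozygous arrays were below the wild-type ones, 1.31-fold lower on average (change -0.39, standard error 0.14, unadjusted p = 0.0299, adjusted p = 0.708 in limma). Its probe set is likewise of the kind that can match other transcripts, and the second, dim B4galt5 probe set had a change of 0.01 with overlapping groups.

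B4galt6 lay at 9.58, 10.02 and 9.75 in heterozygous oviducts, against 9.42, 9.42 and 9.52 in wild-type oviducts. The heterozygous arrays were all above the wild-type ones (change 0.33, standard error 0.15, adjusted p = 0.809 in limma). Its 4 probe sets, all read on the same arrays, had changes of 0.22 to 0.58. In 3 of the 4 the groups did not overlap, beside 10.5% of all probe sets. The dimmest of these barely separated, with its lowest heterozygous array at 7.04 and its highest wild-type array at 7.03. B4galt1, the widely used lactosamine enzyme, had a change of -0.09 (95% interval -0.37 to 0.19). B4galt4 lay at 10.34, 10.30 and 10.29 in heterozygous oviducts, against 10.62, 10.18 and 9.45 in wild-type oviducts, where replicate 3 was again the lowest array. Its change was 0.23, and without that array it was -0.089.

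The sialyltransferases St6gal1 and St3gal5 both lay below wild type, and neither passed over all genes. St6gal1 adds sialic acid to the terminal galactose of N-linked glycans, and it had the smallest p of all 41 members. It lay at 10.62, 10.52 and 10.58 in heterozygous replicates 1, 2 and 3, against 11.26, 11.25 and 11.41 in wild-type replicates 1, 2 and 3. The deposited intensities were 1587, 1465 and 1525 in heterozygous oviducts, against 2481, 2435 and 2754 in wild-type oviducts. The groups were far apart relative to their spread, at 10.57 ± 0.05 and 11.31 ± 0.09 (SD, n = 3 each), 1.66-fold lower. The log2 change of -0.74 had a standard error of 0.11 and a 95% interval of -1.01 to -0.46 (unadjusted p = 6.76e-04, adjusted p = 0.308 in limma, exact permutation p = 0.1).

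The second St6gal1 probe set did not show this separation. It lay at 7.12, 7.44 and 7.74 in heterozygous replicates 1, 2 and 3, against 8.22, 7.66 and 6.96 in wild-type replicates 1, 2 and 3. The groups overlapped, with wild-type replicate 3 the lowest of all 6 arrays, and the change was -0.18 (standard error 0.36). With the mean of both probe sets in place of the brighter one, the gene's change was -0.46 (adjusted p = 0.841 in limma).

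St3gal5 is the synthase of the ganglioside GM3, which it makes by adding sialic acid to lactosylceramide. It lay at 9.44, 8.92 and 9.90 in heterozygous replicates 1, 2 and 3, against 10.29, 10.10 and 10.09 in wild-type replicates 1, 2 and 3. The wild-type arrays were close together and the heterozygous ones spread out below them, at 9.42 ± 0.49 and 10.16 ± 0.11 (SD, n = 3 each), 1.67-fold lower. The log2 change was -0.74 (standard error 0.26, 95% interval -1.38 to -0.11, unadjusted p = 0.0289, adjusted p = 0.698 in limma), and without heterozygous replicate 2, the lowest array, it was -0.49. The second St3gal5 probe set had a change of -0.51 with overlapping groups.

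The other sialyltransferases did not separate the genotypes. St3gal1, which caps core 1 chains, had a change of -0.16, and St3gal4 and St3gal6, which cap lactosamine chains, had changes of 0.05 and 0.23. St6galnac2 and St6galnac4, which add sialic acid to the GalNAc of O-glycans, had changes of 0.10 and 0.25. The class as a whole had 4 members above 0 and 3 below, with a median of 0.05.

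**Figure D3:**
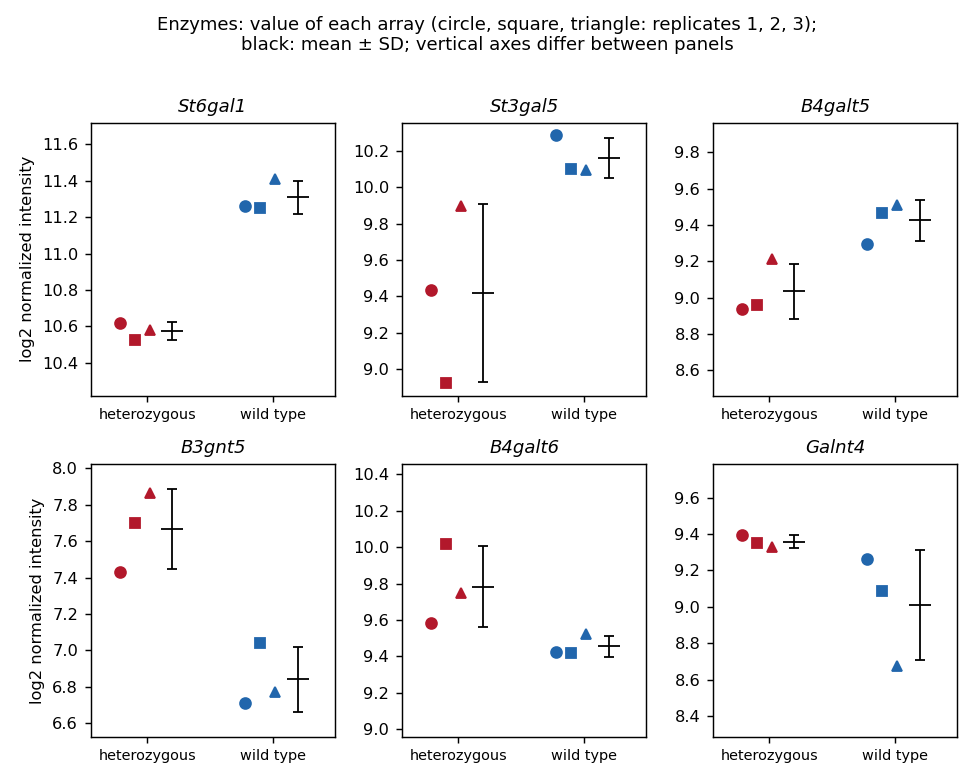
Log2 normalized intensity of 6 enzymes in each array, heterozygous left and wild type right, with replicates 1, 2 and 3 as circle, square and triangle and the mean ± SD in black, on vertical axes that differ between panels. The heterozygous points lie below the wild-type points for St6gal1, St3gal5 and B4galt5 and above them for B3gnt5, B4galt6 and Galnt4, and none of the 6 passed over all genes.

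Set side by side after their values had been seen, and so with no test, 4 members meet at lactosylceramide. Its synthases B4galt5 and B4galt6 had changes of -0.39 and 0.33, St3gal5, which leads to gangliosides, had -0.74, and B3gnt5, which leads to the lacto-series, had 0.83. On the separate list of glycan genes, A4galt, which leads to the globo-series, had a change of 0.61, and B4galnt1, which extends gangliosides, had -0.58. Other ganglioside enzymes of that list were nearer to 0, with St8sia1 at 0.09, B3galt4 at -0.01 and St3gal2 at 0.17, and the groups overlapped in all 5 genes. Each of these is a level of transcript in the whole organ, in which fewer cells of a type and less RNA per cell cannot be told apart.

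Markers of other cell types were read from the same fit, and none passed over all genes. All 5 smooth muscle markers had a change above 0 (median 0.72), with a summed intensity of 23170 to 33242 in heterozygous and 19947 to 25792 in wild-type oviducts. Of 5 uterine epithelial markers 4 were above 0 (median 0.65, summed intensity 14403 to 16469 in heterozygous and 11337 to 13982 in wild-type oviducts). Ltf made up most of that sum, with a change of 0.21. Cxcl15 had a change of 2.50 with groups that did not overlap (adjusted p = 0.062 in limma), and Foxa2 one of -0.06. Of 4 adipocyte markers 3 were above 0 (median 1.78, summed intensity 608 to 1299 in heterozygous and 231 to 290 in wild-type oviducts). All 5 stromal markers were above 0 (median 0.14, summed intensity 27485 to 32782 in heterozygous and 26559 to 30760 in wild-type oviducts), with Tcf21 at 0.68 and its groups not overlapping, and 4 of 5 leukocyte markers were above 0 (median 0.16, summed intensity 5355 to 7451 in heterozygous and 4741 to 6550 in wild-type oviducts). The secretory markers had a median of 0.04 and the ciliated markers one of -0.15, with 5 of 6 below 0. Of 4 mesothelial markers 2 were above 0 and 2 below (median 0.08). Among these, Wt1 was at -0.57 with overlapping groups and Lrrn4 at 0.84 with groups that did not overlap. No marker was at 0 in any array, and their part in the members' values was not tested.

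Of the fucosyltransferases, 3 were above 0 and 1 below, with a median of 0.20. Fut8, which adds the core fucose of N-glycans, lay at 10.93, 10.35 and 10.42 in heterozygous oviducts, against 10.43, 9.88 and 10.02 in wild-type oviducts. The groups overlapped, since wild-type replicate 1 reached the 2 lower heterozygous arrays, and the change was 0.46 (standard error 0.22, adjusted p = 0.823 in limma). All 3 Fut8 probe sets were above 0, at 0.46, 0.27 and 1.14. Fut9, which makes the Lewis x structure, had a change of 0.28. Fut1 and Fut2 make the H antigen and lie near each other on chromosome 7, with 3 protein-coding genes between them. Fut2 had a change of 0.11, and Fut1 was very dim, with means of 2.25 in heterozygous and 2.59 in wild-type oviducts.

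The last classes were small. Chst1, a sulfotransferase of keratan sulfate, lay at 6.70, 7.12 and 6.06 in heterozygous oviducts, against 7.11, 6.99 and 7.05 in wild-type oviducts. The heterozygous arrays were spread to both sides of the wild-type ones, and the change was -0.42 (standard error 0.27, adjusted p = 0.88 in limma). Chst4, which sulfates N-acetylglucosamine on mucin-type chains, had a change of 0.07. Mgat4a, which adds an N-glycan branch, lay at 9.41, 9.09 and 9.03 in heterozygous oviducts, against 8.74, 8.77 and 9.18 in wild-type oviducts. Wild-type replicate 3 lay above 2 of the heterozygous arrays, so the groups overlapped (change 0.28, standard error 0.18, adjusted p = 0.88 in limma). Mgat1, which opens the way to hybrid and complex N-glycans, had a change of 0.01 (95% interval -0.28 to 0.30).

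Several probe sets per gene allowed a check within the arrays. The 41 members had 90 probe sets, and 28 members had more than 1. In 16 of these 28 all probe sets had the same sign of change, and in 12 they did not. B3gnt5, B4galt6, St3gal5, St6gal1, Fut8 and Muc4 were among those of 1 sign, and Galnt4, C1galt1, Gcnt2, B4galt5 and Muc20 were among those of mixed sign. The share of 1 sign over all genes was not computed, so these counts have no background beside them.

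**Figure D4:**
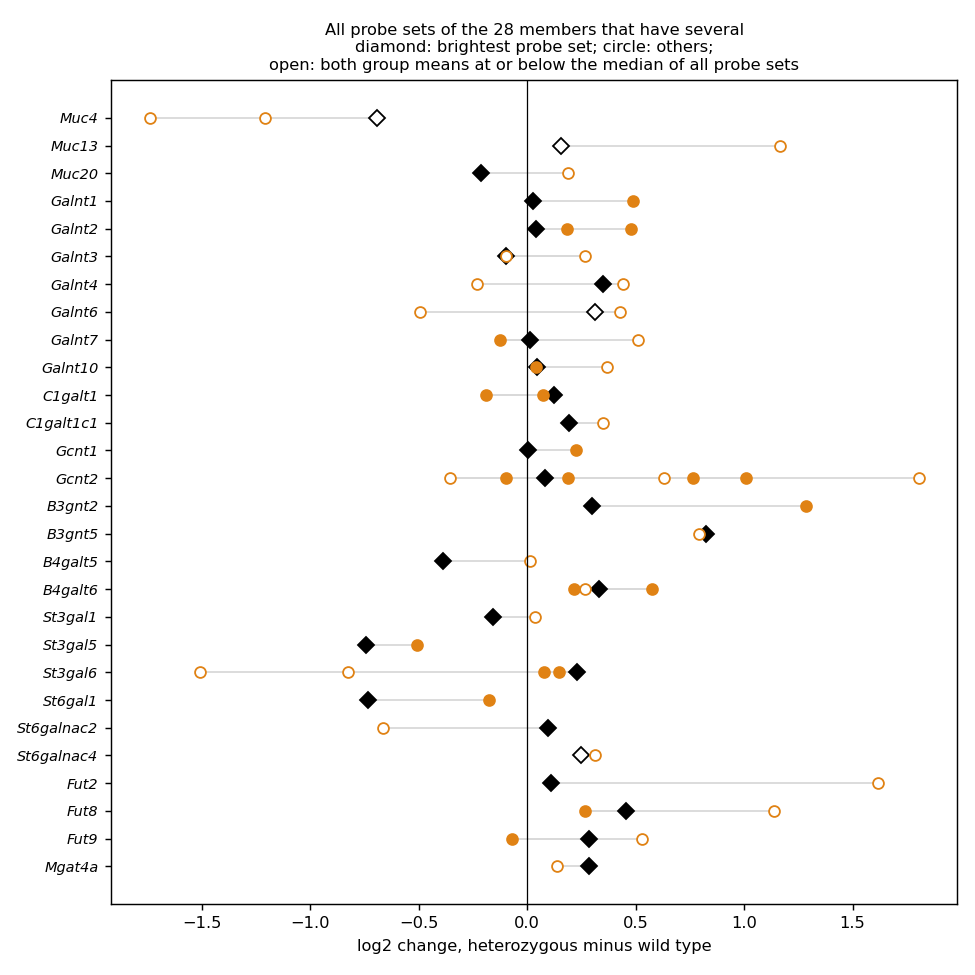
Log2 change, heterozygous minus wild type, of every probe set of the 28 members with several, with the brightest as a diamond, the others as circles, and open symbols where both group means were at or below the array median. The 2 B3gnt5 probe sets nearly coincide, at 0.83 and 0.79, and the brightest St6gal1 probe set, at -0.74, lies apart from the other, at -0.18.

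A wider list of glycan genes outside the 41 was read from the same fit. Of its 79 measured genes, 35 were above 0 and 44 below (median -0.06), 0 passed over all genes, and 4 (5.06%, beside 6.44% of all genes) had an unadjusted p under 0.05, 1 higher and 3 lower. The 3 arrays of each genotype did not overlap in 8 of the 79 genes (10.1%), beside 11.8% of all genes. St8sia6, another sialyltransferase, lay at 9.50, 8.88 and 9.41 in heterozygous replicates 1, 2 and 3, against 10.67, 10.41 and 10.32 in wild-type replicates 1, 2 and 3. All 3 heterozygous arrays lay below the wild-type ones (change -1.20, standard error 0.21, adjusted p = 0.387 in limma). Spdef, a transcription factor of mucus-secreting cells, lay at 9.33, 9.23 and 9.24 in heterozygous oviducts, against 9.88, 10.06 and 9.81 in wild-type oviducts. Its groups did not overlap either (change -0.65, standard error 0.12, adjusted p = 0.456 in limma).

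Fut11, listed with the fucosyltransferases, lay at 8.36, 8.58 and 8.67 in heterozygous oviducts, against 9.02, 8.81 and 9.02 in wild-type oviducts, with no overlap (change -0.41, adjusted p = 0.698 in limma). This is the brightest of its 3 probe sets, and over the alternative ways of processing the change of Fut11 ranged from -0.48 to -0.10. Mcam, a cell adhesion glycoprotein of vessels and smooth muscle, lay at 11.20, 11.54 and 11.00 in heterozygous oviducts, against 10.69, 10.58 and 10.70 in wild-type oviducts. The heterozygous arrays were all above (change 0.59, adjusted p = 0.61 in limma), and the 5 endothelial markers were all above 0 as well (median 0.40, summed intensity 2458 to 3002 in heterozygous and 1827 to 2324 in wild-type oviducts). Among the genes that supply activated sialic acid, Cmas had a change of 0.0045, Nans of 0.09, Gne of -0.25 and the transporter Slc35a1 of -0.10, all with overlapping groups.

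Over the 41 members the lowest of the 6 arrays was heterozygous replicate 1, 2 or 3 in 3, 7 and 4 members, and wild-type replicate 1, 2 or 3 in 12, 6 and 9 members. The highest was heterozygous replicate 1, 2 or 3 in 10, 6 and 6 members, and wild-type replicate 1, 2 or 3 in 8, 4 and 7 members. No single array was thus lowest or highest throughout the members. Over all 18193 genes, wild-type replicate 3, the array of highest Actb ratio, was the highest in 5307, against 2184 to 2866 for each other array. Wild-type replicate 1 was most often the lowest, in 3802.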

How the data were processed

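RNA of 6 oviduct samples, 1 per array, was labelled as biotinylated cRNA from 1 µg total RNA, per the labels' protocols, and read on a 1-colour array. The deposited values are linear intensities, 1 for each probe set in each sample. Neither the summarising program nor a genome build is given in the sources used here. With 2% trimmed at both ends, the 6 array means were equal, so the deposited intensities share a scale, as found from the values. Samples were grouped by their genotype label.

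Here 64 control probe sets were dropped, leaving 45037, intensities under 1 were set to 1, and log2 values were quantile normalized because array medians differed by 0.147, above a limit of 0.1. Of the probe sets, 34945 had 1 gene symbol, 932 had several and 9160 were not listed. Each of 18193 genes took its probe set of highest mean over the 6 arrays. Heterozygous minus wild type was fitted with limma 3.58.1 in R 4.3.3 (lmFit, eBayes, two-sided), with Benjamini-Hochberg adjustment over all genes at 0.05. Standard errors and 95% intervals are moderated. The exact permutation test over 20 assignments is two-sided. The number of arrays limits the precision.

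Array values are given for all mucins, for members at an unadjusted p under 0.05 or with groups that did not overlap and a change of at least 0.5, and for the member of smallest p in the remaining classes. Of the other glycan genes the 4 of smallest p were taken. Genes with array values outside this rule (B3gnt2, B4galt4, B4galt6, Galnt6), and the other named glycan genes, were chosen after their values were seen. The members and lists were chosen with earlier results of these data known. Scripts were tested on simulated data. Alternatives were array weights, eBayes with trend and robust, the scaling as deposited, dropping dim probe sets, a replicate block, other probe set rules, log2 of the intensity plus 16, the Actb ratio as covariate, and leaving out each array.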

Additional observations from a re-analysis of the deposited data

How the results depend on the processing

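No member passed over all genes in limma under any of the 15 alternatives, among 597 pairs of member and alternative, and the smallest adjusted p of a member was 0.0713, for St6gal1 with trend and robust. With the replicate number as a block the smallest was 0.823. Deviations from the group means had correlations of -0.164, -0.023 and -0.0924 between same-numbered arrays, beside -0.056 to 0.132 between the others. With 3 arrays per group such correlations cannot tell whether the numbers pair the samples. The 3 genes that passed over all genes became 7 with array weights, 1 with trend and robust, 1 when dim probe sets were dropped, and 0 with the replicate block, without cross-hybridizing probe sets, with the Actb ratio as covariate and, in each case, leaving out 1 array (0 to 0). Members at an unadjusted p under 0.05, 4 in the main setting, numbered 7 with trend and robust (6.89% of all genes), 8 with array weights (14% of all genes), 2 of 33 without cross-hybridizing probe sets (6.23% of all genes), and 2 to 7 leaving out 1 array (4.63% to 10.5% of all genes). Members whose groups did not overlap, 10 in the main setting, numbered 6 with the mean of probe sets, 14.6% of members beside 11.3% of all genes, and 10 to 15 leaving out 1 array, beside 17.6% to 32% of all genes. Members above 0 numbered 28 in the main setting and 21 with array weights (median 0.0032, beside -0.041 over all genes). With the Actb ratio as covariate they numbered 24, and leaving out 1 array 22 to 28. In the other alternatives that kept all 41 they numbered 27 or 28. B3gnt5 ranged over 0.70 to 0.94, St6gal1 over -0.76 to -0.46 and St3gal5 over -0.98 to -0.49. Dropping dim probe sets left 10 members without a value, B3gnt5 among them, and leaving out those called cross-hybridizing left 8, St3gal5 among them. That rule went only by a probe set name ending in _s_at, _x_at or _a_at, and matches to other genes were not examined. Both St3gal5 probe sets end in _a_at, which need not mean a match to another gene.

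The cause of changes of sign was not tested. At least 1 alternative turned the sign of 21 of the 41 members (47 of 597 pairs), B4galt5 and Galnt6 among them. With array weights these were Muc1 at -0.065, Galnt1 at -0.024, Galnt6 at -0.74, Galnt7 at -0.032, B3gnt3 at -0.018, St3gal1 at 0.0076, St3gal4 at -0.10, Chst4 at -0.064 and Mgat1 at -0.0096. With the mean of probe sets these were Galnt3 at 0.025, St3gal6 at -0.38 and St6galnac2 at -0.28. With the Actb ratio as covariate these were Galnt7 at -0.10, C1galt1c1 at -0.0015, B4galt4 at -0.11 and St3gal4 at -0.014. The deposited scaling gave Gcnt1 at -0.012, and leaving out cross-hybridizing probe sets gave B4galt5 at 0.014, the value of its second probe set. Leaving out 1 array gave ranges that cross 0 for Muc1 (-0.11 to 0.17), Muc16 (-0.31 to 0.16), Galnt1 (-0.021 to 0.072), Galnt2 (-0.026 to 0.11), Galnt3 (-0.16 to 0.0036), Galnt6 (-0.20 to 1.05), Galnt7 (-0.082 to 0.080), Galnt10 (-0.017 to 0.10), Gcnt1 (-0.032 to 0.054), B3gnt3 (-0.031 to 0.56), B4galt4 (-0.089 to 0.50), St3gal4 (-0.057 to 0.21), St6galnac2 (-0.060 to 0.22), Fut1 (-0.82 to 0.16), Fut2 (-0.12 to 0.30), Chst4 (-0.15 to 0.20) and Mgat1 (-0.044 to 0.062). Signal over background is unknown without detection calls, which limits the dim members most.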
